A study of Mus musculus with 11 samples.

Results

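B cells were found among the cells of brain vessel preparations as 690 of 61625 barcodes that passed the limits on quality, out of 66658 barcodes in all. A barcode had to hold 500 or more detected genes and no more than 10% mitochondrial unique molecular identifiers (UMIs, each standing for 1 captured RNA molecule). It was called a B cell when Cd79a, Cd79b and Ms4a1, which encode both signalling chains of the B cell receptor and the surface protein CD20, summed to at least 3 UMIs with at least 2 of the genes detected. It could hold at most 3 UMIs of the endothelial genes Cldn5 and Flt1, at most 1 UMI of the microglial genes P2ry12 and Cx3cr1, and 0 UMIs of the T cell gene Cd3e. These 8 genes chose the cells, so their levels are given as a description. The study asked how the cells of the brain vasculature differ in CADASIL, an inherited small vessel disease caused by NOTCH3 variants. Cells were taken from 6 R182C-TgN3 (CADASIL) and 5 WT-TgN3 (control) mice, with 1 droplet library of 3′ RNA ends for each. The human NOTCH3 transgene of R182C-TgN3 mice holds the R182C variant and that of the controls the wild-type sequence, so mice without the transgene are not part of the comparison. Vessel fragments were pulled out of digested brain with CD31 antibodies and digested again into single cells, and whether the mice were perfused beforehand is not given in the sources used here.

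The R182C-TgN3 mice comprised 3 mice of 9 months (2 females and 1 male, mice 1 to 3) and 3 mice of 6 months (1 male and 2 females, mice 4 to 6). The WT-TgN3 mice comprised 3 mice of 6 months (2 females and 1 male, mice 1 to 3) and 2 mice of 9 months (1 male and 1 female, mice 4 and 5). All mice were untreated. They were processed in 4 batches by the labels, and batches 1 and 2 held only mice of 9 months while batches 3 and 4 held only mice of 6 months, so age and batch cannot be told apart. Libraries held 17550806 to 64215050 UMIs, with a median of 3553.5 to 7775 UMIs per kept barcode. Xist and Ddx3y in the B cells matched the labelled sex in 11 of 11 mice.

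A B cell is built in steps that its RNA records. In the bone marrow, RAG proteins join the gene segments of the heavy chain and then of the light chain, and a surrogate light chain made from Vpreb1 and Igll1 holds the place of the light chain in between. The newly made cell shows IgM, the maturing cell shows IgM together with IgD from the same RNA by alternative splicing, and a cell that has met antigen may switch to IgG, IgE or IgA or become an antibody-secreting plasma cell. Each mature cell normally keeps either a kappa or a lambda light chain.

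The genes of these chains are counted at their constant ends, and the lambda copies resemble each other to unequal degrees, which sets what the light chain values can show. The last 90 coding bases before the stop codon are printed for the 3 lambda constant genes that led in any cell, from GENCODE vM21 transcripts on mm10, 5′ to 3′ on the gene's strand, with capitals at the 29 positions where the 3 sequences are not all the same.
Iglc1: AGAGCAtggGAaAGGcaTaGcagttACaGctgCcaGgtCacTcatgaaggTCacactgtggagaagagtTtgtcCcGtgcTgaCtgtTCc
Iglc2: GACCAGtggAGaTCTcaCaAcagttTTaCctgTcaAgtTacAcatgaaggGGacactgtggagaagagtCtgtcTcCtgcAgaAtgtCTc
Iglc3: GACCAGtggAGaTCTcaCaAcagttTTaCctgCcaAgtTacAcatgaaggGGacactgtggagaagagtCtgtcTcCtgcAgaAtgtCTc
In this stretch Iglc1 differed from Iglc2 at 29 and from Iglc3 at 28 of 90 bases, whereas Iglc2 and Iglc3 differed at 1. Over the whole coding part Iglc2 and Iglc3 were 96.2% identical (306 of 318 aligned bases) and 87.9% identical after the stop codon, against 72.3% and 73.1% for Iglc1 with Iglc2 and Iglc3. Igkc, the kappa constant gene, was 50.2% to 53.0% identical to the lambda genes. Counts of Iglc2 and Iglc3 are therefore uncertain between these 2 genes, while Igkc and Iglc1 are set apart from them by sequence. On mm10 all 3 lambda genes are read from the reverse strand, on chromosome 16 (Iglc1 at 19061618-19062071, Iglc3 at 19065230-19065681 and Iglc2 at 19198396-19200351), and Igkc lies on the forward strand of chromosome 6 (70726435-70726966).

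The cells also held B cell genes that had not chosen them. Of 20 genes of B cell identity and the B cell receptor outside the rule, 20 were detected, 19 exceeded 100 CPM over all B cells (CPM is a gene's UMIs divided by all UMIs of the same cells, times 1e6), and 20 were higher than in 231 barcodes gated as T or NK cells. Levels per mouse are CPM of the summed B cell UMIs and are given as mean ± SD over the 10 mice with at least 10 B cells. UMIs of 3′ ends are not divided by gene length. Among genes outside the rule, Bank1, an adaptor of B cell receptor signalling, reached 2730 ± 604 CPM, Cd52, which T cells share (1571 CPM in the T or NK gate), 1681 ± 170 CPM and Ly6d, a surface protein of the B lineage, 1584 ± 300 CPM. Pax5, the transcription factor that holds B cell identity, reached 735 ± 178 CPM against 0 in the T or NK gate and 0.0455 CPM in 29900 barcodes of the endothelial gate. The genes of the rule itself stood at 1881 ± 196 CPM for Cd79a, 1078 ± 219 for Cd79b and 822 ± 197 for Ms4a1.

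Markers of other cell types were low in the B cells, with exceptions. Of 12 T and NK cell markers, 9 had 0 UMIs, and the remaining 3 (Lck, Cd3d and Trac) had 25, 4 and 3 UMIs. Endothelial markers summed to 514 to 895 CPM in R182C-TgN3 and 523 to 960 CPM in WT-TgN3 mice, and microglial markers to 576 to 1107 and 661 to 972 CPM. Pecam1, which encodes the CD31 protein used for the isolation and is also made by leukocytes, gave 696 UMIs in 379 B cells. Mural cell markers ran from 0 to 1399 CPM in R182C-TgN3 and from 17.6 to 314 CPM in WT-TgN3 mice, and 9 B cells with at least 3 mural UMIs held 246 of the 263 Acta2 UMIs. Haemoglobin and other erythroid markers reached 1174 CPM in 1 WT-TgN3 mouse and at most 54.6 CPM in R182C-TgN3 mice. Of 12 neutrophil and monocyte markers 7 had 0 UMIs, and Plac8, which B cells also make, held 910 of the UMIs of that list. Markers of plasmacytoid dendritic cells, summed to 350 to 524 and 385 to 471 CPM, of which Spib and Tcf4, factors that B cells also use, gave 317 and 774 UMIs. Choroid plexus markers ran from 59.7 to 241 CPM in R182C-TgN3 and from 164 to 363 CPM in WT-TgN3 mice. The part of these cells or of their free RNA in the results was not tested, except that the comparisons were repeated without the 9 cells. The B cells had a median of 3748.5 UMIs and 1597.5 genes, with 937 to 27702 UMIs, and 5 were scored as doublets. None of their barcodes was shared between B cells of different libraries (0 barcodes), and 10 were also called as some other cell in another library.

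Few barcodes lay at the limits of the rule, except at a microglial sum of 1. At the lowest marker sum inside the rule, 3, there were 10 cells, of which 90% had an Ighm UMI and 90% an Igkc UMI. Just outside, at a sum of 2, there were 7 barcodes with 85.7% and 71.4%, and 12 more had a sum of at least 3 from 1 gene alone. Endothelial sums of 2 or 3 were held by 24 cells inside the rule and sums of 4 or 5 by 2 barcodes outside, while 67 barcodes with at least 4 were left out, with a median of 8524 UMIs and 634 Ighm CPM. A microglial sum of 1 was held by 106 cells inside and a sum of 2 by 7 outside, out of 29 with at least 2. The limit on Cd3e left out 0 barcodes that met the rest of the rule.

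B cells were present in every mouse, and their share varied widely between mice of one genotype. In the R182C-TgN3 mice 1 to 6, B cells numbered 41, 80, 205, 31, 18 and 62, which were 0.415%, 1.93%, 3.06%, 0.644%, 0.604% and 1.09% of kept barcodes. In the WT-TgN3 mice 1 to 5 they numbered 8, 89, 67, 20 and 69, or 0.183%, 1.53%, 1.06%, 0.502% and 0.998%. The highest share, in R182C-TgN3 3 (exact binomial 95% interval 2.66% to 3.50%), was 16.7 times the lowest, in WT-TgN3 1 (0.0789% to 0.360%). Such intervals cover counting error only. R182C-TgN3 3 alone contributed 29.7% of all B cells and was the only mouse of its batch. The groups overlapped between 0.415% and 1.53%, with 2 R182C-TgN3 mice above all controls and 1 control below all R182C-TgN3 mice.

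**Figure D1:**
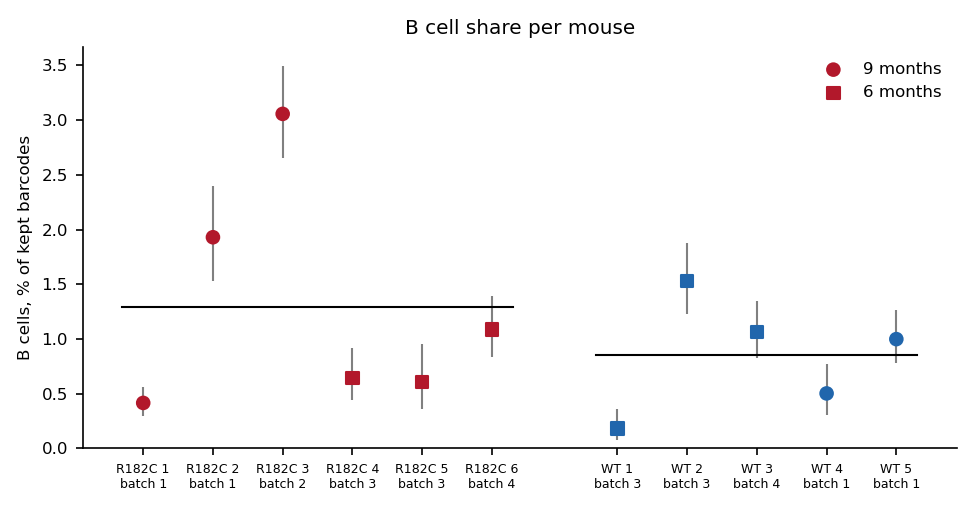
B cells as a percentage of kept barcodes in each mouse, with R182C-TgN3 in red, WT-TgN3 in blue, circles for 9 months and squares for 6 months. Grey lines are exact binomial 95% intervals and black lines the genotype means of 1.29% and 0.855%; R182C-TgN3 3 at 3.06% and WT-TgN3 1 at 0.183% are the extremes.

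R182C-TgN3 mice had a mean share of 1.29% ± 1.02 (SD, n = 6) and controls one of 0.855% ± 0.524 (SD, n = 5), a difference of 0.434 percentage points that did not exceed the spread between mice (2-sided exact permutation test over 462 splits, p = 0.459, adjusted p = 0.9 over 9 share comparisons, smallest possible p = 0.00216). Without R182C-TgN3 3 the difference was 0.0806 points. Within batch 1 the R182C-TgN3 mean exceeded the control mean by 0.422 points, and within batch 3 the difference was -0.232 points (2 against 2 mice in each batch). In batch 4, with 1 mouse of each genotype, the R182C-TgN3 mouse lay 0.0236 points higher. Mice of 9 months had 1.38% ± 1.11 (SD, n = 5) and mice of 6 months 0.852% ± 0.472 (SD, n = 6; exact permutation test, p = 0.329), a difference of 0.529 points that was 0.109 points without R182C-TgN3 3. Females had 1.06% ± 0.948 (SD, n = 7) and males 1.15% ± 0.690 (SD, n = 4; exact permutation test, p = 0.891).

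Set against the other gated blood-derived cells in place of all barcodes, B cells outnumbered barcodes of the T or NK gate in 10 of 11 mice. The share of B cells among B cells, T or NK cells and neutrophils was 75.9%, 83.3%, 81.7%, 77.5%, 72.0% and 69.7% in R182C-TgN3 mice 1 to 6. It was 40.0%, 84.8%, 62.6%, 66.7% and 64.5% in WT-TgN3 mice 1 to 5. All R182C-TgN3 mice lay above 4 of the 5 controls, and WT-TgN3 2 lay above all of them. The means were 76.7% ± 5.32 (SD, n = 6) and 63.7% ± 15.9 (SD, n = 5), 12.98 points apart (exact permutation test, p = 0.0779, adjusted p = 0.407 over 9 comparisons). Without WT-TgN3 2 the genotypes lay 18.2 points apart (p = 0.00476 by the exact permutation test, the smallest p that this split allows), and without WT-TgN3 1 they lay 7.05 points apart (p = 0.186 by the same test). The neutrophil gate held only 3 barcodes in all, so this share rests on the 231 T or NK cells, which numbered 7 to 46 per mouse. The T or NK gate asked for at least 2 of Cd3e, Cd3d, Cd3g and Nkg7, so cells with Nkg7 alone were not counted. Gates may differ in how many cells they miss, so these shares compare gated barcodes only.

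IgM was the isotype of these cells, with IgD beside it in most. Ighm, the mu constant gene (chromosome 12, 113418558-113422730 on the reverse strand), gave 5232 UMIs in 676 of 690 cells, and Ighd, the delta gene just downstream (113406604-113416324), gave 1289 UMIs in 499 cells. Both were detected in 487 cells (70.6%, exact binomial 95% interval 67.0% to 74.0%), Ighm without Ighd in 189 (27.4%), Ighd without Ighm in 12 and neither in 2. Ighm was not specific to the gate, with a UMI in 43.9% of 11477 barcodes gated as microglia (131 CPM, median 5303 UMIs) and 27.7% of the T or NK gate (76.2 CPM, median 5031 UMIs) against 98.0% and 1884 CPM in B cells. Ighd had a UMI in 0 of the 231 T or NK barcodes, which allows a share of up to 1.30%, and in 2.51% of the microglial gate, against 72.3% of B cells.

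Per mouse, Ighm stood at 1853, 2103, 1801, 1794, 1686 and 1843 CPM in R182C-TgN3 mice 1 to 6. In WT-TgN3 mice 2 to 5 it stood at 2064, 1798, 1993 and 1686 CPM, inside the same range except for the upper R182C-TgN3 value. Ighd stood at 563, 406, 469, 586, 492 and 338 CPM in the R182C-TgN3 mice and at 389, 618, 540 and 512 CPM in the controls, and the groups overlapped. The number of Ighm UMIs per Ighd UMI ranged from 2.91 in WT-TgN3 3 to 5.46 in R182C-TgN3 6. Thinned to 1000 UMIs per cell, which left out 2 cells, an Ighd UMI was held by 36.3% ± 5.45 (SD, n = 6) of B cells in R182C-TgN3 mice, while controls had 38.2% ± 6.56 (SD, n = 4) (exact permutation test, p = 0.605). Without thinning 72.3% of all B cells had an Ighd UMI, and the difference between genotypes turned to 1.78 points.

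Class-switched transcripts were close to absent. Igha, the IgA constant gene (chromosome 12, 113254830-113260236), gave 7 UMIs in 6 cells, Ighg2b and Ighg3 gave 1 UMI each, and Ighg1, Ighg2c and Ighe gave 0, a count that allows up to 3 UMIs. Any switched gene was seen in 8 of 690 cells (1.16%, 0.502% to 2.27%), and 8 of these 8 also held Ighm. In 0 cells did switched UMIs reach the sum of Ighm and Ighd, and 1 cell held at least 2 switched UMIs. Jchain, the joining chain of secreted IgM and IgA, had 0 UMIs. Switched genes made up 0.0682% ± 0.110 (SD, n = 6) of heavy chain UMIs in R182C-TgN3 mice and 0.237% ± 0.196 (SD, n = 4) in controls (exact permutation test, p = 0.0905, adjusted p = 0.407 over 9 comparisons). These shares rest on 0 to 3 switched UMIs per mouse, and without WT-TgN3 3, which had 0, the genotypes differed by -0.248 points (p = 0.0238 by the exact permutation test), while without WT-TgN3 4 they differed by -0.103 points (p = 0.286 by the same test).

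Kappa light chains led in most cells. Igkc gave 14698 UMIs in 649 cells, Iglc1 2162 in 280, Iglc2 3131 in 592, Iglc3 1426 in 507 and Iglc4 4 in 4 cells. Of 688 cells with a light chain UMI, Igkc was the most counted in 609 (88.5%), Iglc1 in 49 (7.12%), Iglc2 in 25 and Iglc3 in 5. Lambda therefore led in 79 cells (11.5%, exact binomial 95% interval 9.20% to 14.1%). The endothelial gate had Igkc in 0.251% and Iglc2 in 0.0769% of its barcodes, at a median of 4860 UMIs.

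A lambda count did not mark a lambda-led cell for every gene. In the 609 Igkc-led cells, Iglc2 was detected in 85.1% and Iglc3 in 76.0%, at 3.48 and 2.04 UMIs per cell beside 23.5 of Igkc, whereas Iglc1 was detected in 34.8% at 1.06 UMIs per cell. The 49 Iglc1-led cells held 27.3 Iglc1 UMIs each on average, with 7.47 of Iglc2, and Igkc was detected in 22 of them. In the 30 cells led by Iglc2 or Iglc3, Igkc was detected in 18. As read above, Iglc1 differs from Iglc2 at 29 of the last 90 coding bases and Iglc2 from Iglc3 at 1. Lambda genes made up 32.3% ± 4.36 (SD, n = 6) of light chain UMIs in R182C-TgN3 mice and 33.1% ± 12.6 (SD, n = 4) in controls (exact permutation test, p = 0.895), with 27.4% to 38.3% and 22.6% to 49.2%. This share also counts the lambda UMIs of Igkc-led cells (646 of Iglc1, 2118 of Iglc2 and 1241 of Iglc3). It is therefore not the share of lambda-led cells.

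**Figure D2:**
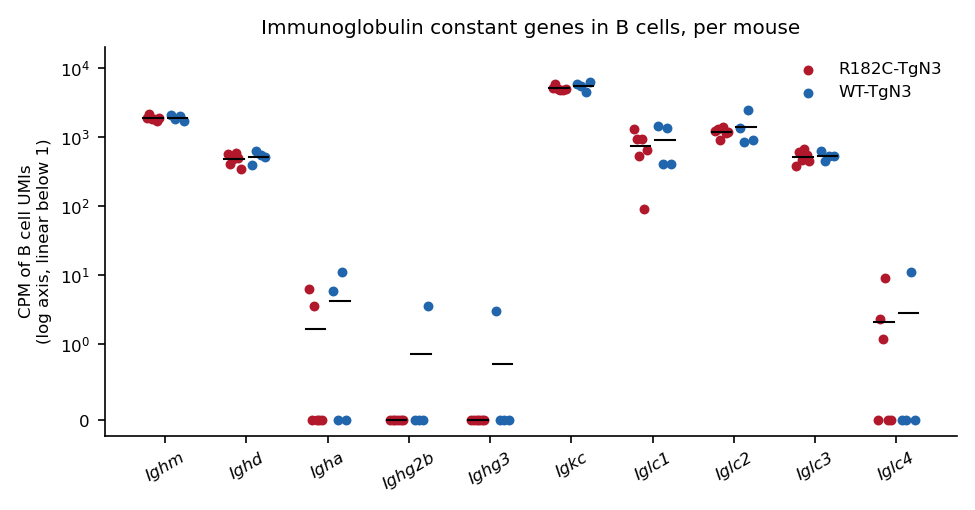
CPM of immunoglobulin constant genes in the summed B cells of each of 10 mice, on an axis that is logarithmic above 1 and linear below, with R182C-TgN3 in red, WT-TgN3 in blue and black lines at the means. Ighm, Ighd and Igkc lie close together in all mice, Iglc1 is spread from 89.5 CPM in R182C-TgN3 5 upwards, and the switched genes lie at or near 0.

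Igkc was steady between mice, at 5169, 5773, 4905, 4805, 4699 and 4925 CPM in R182C-TgN3 mice 1 to 6 and 5789, 5425, 4416 and 6284 CPM in WT-TgN3 mice 2 to 5. Iglc1 was not, at 1291, 943, 527, 941, 89.5 and 647 CPM and at 1429, 397, 1344 and 404 CPM in the same order. The mouse with the lowest Iglc1 value, R182C-TgN3 5, was also the one in which 0 of 18 cells were led by lambda. Variable genes were seen in part, since only RNA ends were read. Of 185 heavy chain variable genes 65 had a UMI, 243 in all, in 200 cells. Of 160 kappa variable genes 77 did, 520 in all, in 294 cells, and Igkv1-110, Igkv1-117 and Igkv1-135 had the most, with 63, 51 and 34 UMIs. The lambda variable genes gave 107 UMIs, 55 of Iglv3, 43 of Iglv1 and 9 of Iglv2.

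The maturation genes placed most of the cells at the mature stage. All 16 genes listed for mature follicular B cells exceeded 100 CPM over all B cells, and 14 of them were higher than in the T or NK gate. Klf2, which keeps lymphocytes recirculating, stood at 2822 ± 464 CPM, Gimap6 at 519 ± 127 and Ltb, which encodes lymphotoxin beta, at 517 ± 84.0 CPM. Fcer2a, the low-affinity IgE receptor CD23 of follicular cells, was detected in 414 cells. Genes of antigen presentation were high, with the invariant chain gene Cd74 at 6824 ± 558 CPM and the class II genes H2-Eb1, H2-Aa and H2-Ab1 at 2411 ± 252, 2337 ± 295 and 2066 ± 166 CPM. Of the homing genes, Gpr183, an oxysterol receptor, stood at 536 CPM, and Ccr7, which guides entry into lymph nodes, at 301 CPM.

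Genes of other mature fates were detected at lower counts. Of 12 genes of marginal zone and B1 cells, 1 exceeded 100 CPM, Mzb1 at 196 ± 29.8, while Cd9 and Cd1d1 stood at 20.2 and 19.8 CPM and Cd5 gave 1 UMI. Of 13 genes of germinal centre, memory or age-associated B cells 10 were detected, led by Zeb2 (306 CPM), Pdcd1lg2 (83.6) and Bcl6 (49.4). Of 11 plasma cell genes 10 were detected, with Irf4 at 256 CPM, but Sdc1 and Prdm1 gave 7 and 14 UMIs. Survival genes included Rel at 916 ± 219 CPM, Mcl1 at 482 and Bcl2 at 202 CPM. Immediate early genes, which tissue dissociation can also raise, stood high, with Jund at 3290, Junb at 1931, Jun at 1589 and Fos at 1504 CPM. Interferon-stimulated genes were led by Ifi27l2a at 304 CPM.

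Vpreb3, which encodes an endoplasmic reticulum protein of developing B cells, separated a less mature minority. It gave 1077 UMIs in 291 of 690 cells, against 0.0167% of the endothelial and 0.0174% of the microglial gate. Split by this gene, 399 cells had 0 UMIs, 193 had 1 or 2, 67 had 3 to 9 and 31 had 10 or more, and the median depth of these classes was alike (3745, 3780, 3768 and 3567 UMIs). Because the cells were chosen by expression after their values were known, the classes are described without a test, as CPM over all cells of a class.

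Across these classes several genes of early B cells were higher and several genes of mature cells lower. Sox4 stood at 11.04, 12.0, 68.3 and 280 CPM in ascending order of Vpreb3, Myb at 3.68, 1.33, 30.4 and 197, Cecr2 at 52.8, 38.6, 273 and 892 and Cd24a, the heat-stable antigen of immature cells, at 170, 181, 436 and 681 CPM. In the same order Ighd stood at 513, 521, 224 and 22.7 CPM, Fcer2a at 414, 417, 182.2 and 0 and Cr2, a complement receptor of mature cells, at 119, 136, 64.5 and 0 CPM. For these genes the first and second class lay close together, and the values moved from the second to the third class and again from the third to the fourth. Ighm ran the other way from Ighd, at 1710, 1741, 2884 and 2859 CPM. Zeb2, listed above among germinal centre, memory or age-associated genes, was highest with the early genes, at 191, 222, 729 and 1051 CPM. Other B cell genes did not fall with Vpreb3. Ms4a1, a gene of the rule, stood at 662, 731 and 1495 CPM in the classes with 0, 1 to 2 and 3 to 9 UMIs. Cd22 stood at 132, 141 and 175 CPM in the same classes.

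Antigen presentation followed the maturation genes. H2-Ab1 stood at 2195, 2439, 1222 and 151 CPM, Cd74 at 6930, 7358, 5405 and 1687 and the costimulatory gene Cd86 at 632, 509, 285 and 52.9 CPM. B2m, the common chain of class I molecules, changed little, at 915, 871, 805 and 976 CPM. Gpr183 stood at 615, 741, 186 and 7.56 CPM. Ebf1, a lineage factor that endothelial cells of this preparation also hold (1596 CPM), stood at 3098, 3305, 4122 and 6134 CPM.

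**Figure D3:**
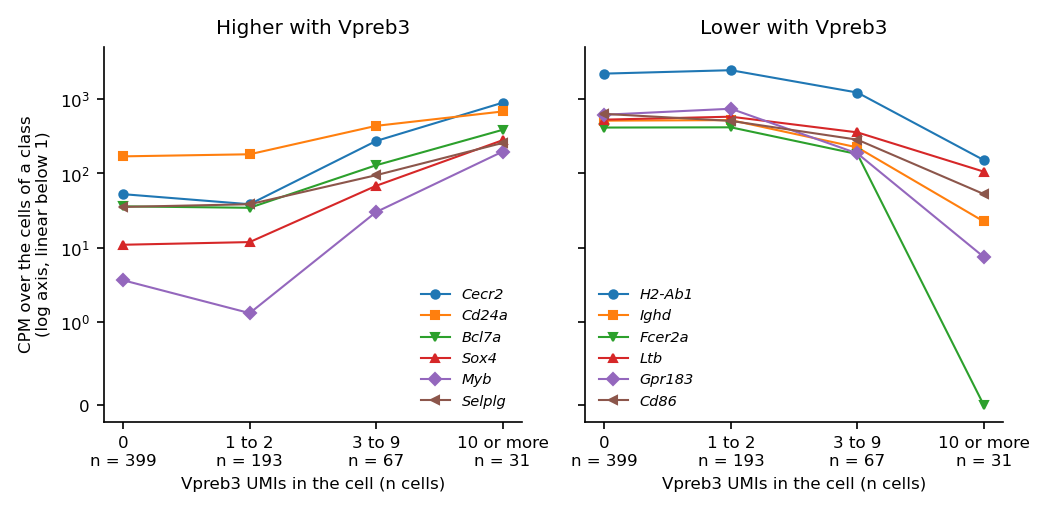
CPM of 12 genes over the cells of 4 classes defined by their Vpreb3 UMIs, on axes that are logarithmic above 1 and linear below; n is the number of cells. Cecr2, Cd24a, Bcl7a, Sox4, Myb and Selplg are highest and H2-Ab1, Ighd, Fcer2a, Ltb, Gpr183 and Cd86 lowest in the class with 10 or more UMIs.

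The cells with 10 or more Vpreb3 UMIs came unevenly from the mice. R182C-TgN3 mice 1 to 6 held 3, 8, 1, 2, 0 and 12 of them and WT-TgN3 mice 1 to 5 held 0, 4, 0, 1 and 0. R182C-TgN3 3, with the most B cells, held 1. Vpreb3 over all B cells was 489, 431, 144, 524, 104 and 1132 CPM in R182C-TgN3 mice and 632, 220, 286 and 192 CPM in WT-TgN3 mice 2 to 5.

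Cells with a UMI of Rag1, Rag2, Vpreb1, Vpreb2, Igll1 or Dntt were rarer still, 16 in all, with 1, 2, 1, 0, 0 and 8 in R182C-TgN3 mice 1 to 6 and 4 in WT-TgN3 2. Rag1 and Rag2, the recombinase genes, were seen in 10 and 4 cells (17 and 4 UMIs). Vpreb1 and Igll1, the surrogate light chain, were seen in 3 cells each, with 39 and 16 UMIs. A Rag gene was held by 13 cells and a surrogate light chain gene by 3, and 0 cells held both kinds. All 16 had Vpreb3, at 5 to 53 UMIs, and Ighm, and 1 had Ighd. In R182C-TgN3 6 a pair of cells with 11 and 27 Vpreb1 UMIs and 6 and 9 Igll1 UMIs held 0 light chain UMIs, while the 13 cells with a Rag gene all held Igkc or a lambda gene. Against the other B cells, with no test, the 16 stood at 487 against 18.1 CPM for Sox4, 1299 against 80.1 for Cecr2 and 561 against 7.75 for Gfra1, which was in 14 of them. H2-Ab1 stood at 14.8 against 2123 CPM, and Gpr183, Cd86, Ltb and Fcer2a had 0 UMIs. Since the rule asks for B cell receptor genes, precursors without them were not looked for, and 13 of the 16 lacked Ms4a1.

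The share with such a UMI, thinned to 1000 UMIs, was 1.48% ± 2.74 (SD, n = 6) in R182C-TgN3 mice and 0.404% ± 0.807 (SD, n = 4) in controls (exact permutation test, p = 0.710). It was 7.01% in R182C-TgN3 6 and at most 0.890% in the others of that genotype, and without that mouse the difference was -0.0303 points. Unthinned, the share in R182C-TgN3 6 was 12.9%. Dividing cells were those with at least 2 UMIs over 9 genes (Mki67, Top2a, Cdk1, Ccnb1, Ccnb2, Birc5, Cenpf, Tpx2 and Ube2c). Replication genes such as Mcm5, Mcm6 and Pcna were not among them, so cells copying their DNA may be missed. Dividing cells by this count numbered 7, of which 5 were from R182C-TgN3 6. Their thinned share was 1.03% ± 2.48 (SD, n = 6) and 0.0590% ± 0.118 (SD, n = 4; exact permutation test, p = 0.9), and without R182C-TgN3 6 the difference was -0.0467 points.

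A further set, singled out after its values were seen, were 29 cells with a UMI of Fcrl5, an Fc receptor-like protein of memory and innate-like B cells. They comprised 17 of the 205 B cells of R182C-TgN3 3, 4 of WT-TgN3 5 and at most 2 of any other mouse. They were deeper than the other B cells (median 5920 against 3669 UMIs), so a UMI of a rare gene was more easily seen in them. S100a6 stood at 973 against 65.9 CPM in 10 of the 29 cells, Sox5 at 719 against 122 in 14, Ahnak at 503 against 105 in 18 and Atxn1 at 428 against 89.3 in 22. Vpreb3 stood at 28.2 against 418 CPM. All 29 had Ighm and 18 had Ighd.

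**Figure D4:**
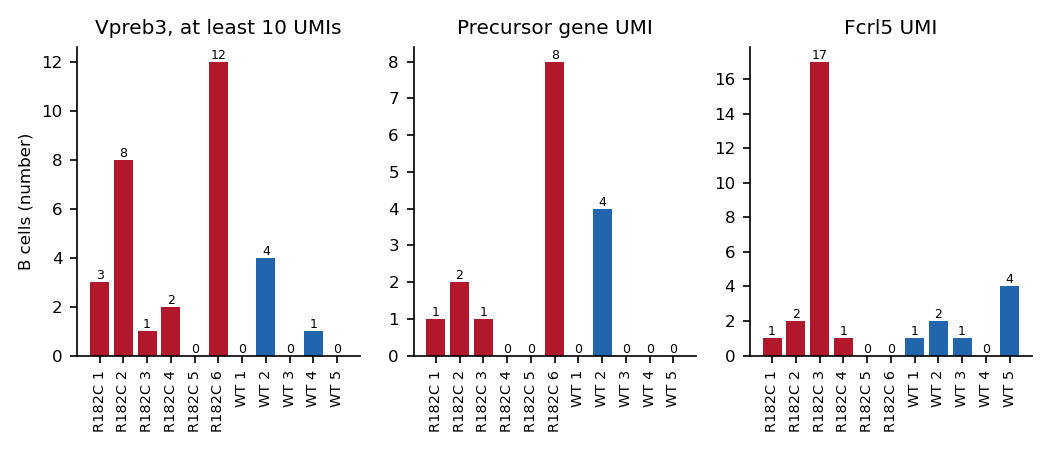
Number of B cells per mouse with at least 10 Vpreb3 UMIs, with a UMI of 1 of the 6 precursor genes and with an Fcrl5 UMI, with R182C-TgN3 in red and WT-TgN3 in blue. R182C-TgN3 6 holds 12 of the 31 and 8 of the 16 cells of the first sets, and R182C-TgN3 3 holds 17 of the 29 cells with Fcrl5.

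Between genotypes, no gene passed the threshold in B cells. UMIs were summed over the B cells of each mouse and compared in 6 R182C-TgN3 and 4 WT-TgN3 mice by edgeR's quasi-likelihood test. At a Benjamini-Hochberg adjusted p under 0.05, edgeR called 0 of 3319 genes tested (0%), and at an unadjusted p under 0.05 it called 80 (2.41%), 41 higher and 39 lower. DESeq2 called 0 of 3318 at an adjusted and 41 at an unadjusted p under 0.05. The median log2 fold change over all genes was 0.01 and the median standard error 0.26.

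The log2 fold change (R182C-TgN3 over WT-TgN3, ± standard error, edgeR) was 0.01 ± 0.14 for Ighm, -0.08 ± 0.18 for Ighd, -0.09 ± 0.13 for Igkc, -0.24 ± 0.41 for Iglc1 and 0.52 ± 0.47 for Vpreb3. Of 16 mature follicular genes 11 had positive and 5 negative values, with a median of 0.05. Of 23 identity genes 6 were positive and 17 negative (median -0.05). That list includes Cd79a, Cd79b and Ms4a1, which chose the cells, so its values are a description. Of 15 antigen presentation genes 7 were positive and 8 negative (median -0.01). Of the 8 tested genes of early B cells 7 were positive, with a median of 0.20. Vpreb3 among them was, as given above, highest in R182C-TgN3 6. For this and the other lists the share of all genes with a positive value is not given, and the median over all genes was 0.01. No member of these lists had an unadjusted p under 0.05 (0 members), beside 1.24% of all genes higher and 1.18% lower. Of the other lists, the homing genes had 11 of 13 positive values (median 0.04), the immediate early genes 7 of 19 (median -0.03), the survival genes 4 of 9 (median -0.01), plasma cell genes 2 of 4, and marginal zone, germinal centre, interferon and cell cycle genes 2 of 2, 2 of 3, 2 of 3 and 2 of 3. Among these, Egr1 (-0.59 ± 0.23) and Hmgb2 (1.18 ± 0.57) had an unadjusted p under 0.05 by edgeR, and Hmgb2 was 1287 CPM in R182C-TgN3 6 and at most 239 CPM in the other R182C-TgN3 mice. So did Ttr, the leading choroid plexus gene (-0.85 ± 0.29).

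The genes of smallest p, none of which passed, were lowly counted. Plcl1, which encodes an inactive phospholipase C-like protein, stood at 36.7, 22.9, 35.6, 26.6, 29.8 and 11.9 CPM in R182C-TgN3 mice 1 to 6 and at 70.3, 85.6, 132 and 62.7 CPM in WT-TgN3 mice 2 to 5. Its log2 fold change was -1.47 ± 0.33 (edgeR, Benjamini-Hochberg adjusted p = 0.608). The 9 cells with mural UMIs held 34 of its UMIs, 4 of those cells were from WT-TgN3 3, and the microglial gate had 994 CPM, so its level in B cells is uncertain. Without these cells Plcl1 did not pass the filter on low counts. Il9r, the interleukin 9 receptor, stood at 73.4, 36.7, 27.3, 62.2, 89.5 and 55.6 CPM and at 0, 18.3, 22.0 and 17.4 CPM in the same order (2.03 ± 0.57). WT-TgN3 1, which had too few B cells to enter the fit, stood at 98.3 CPM for Il9r, above all other mice. Ranbp1 had a value of 0.78 ± 0.25, Smarca4 1.02 ± 0.35, Ulk2 -0.89 ± 0.27 and Ssbp2 -0.73 ± 0.23, and edgeR gave adjusted p = 0.999 for each of these and for Il9r.

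Between ages, edgeR with genotype in the model called 1 of 3076 genes tested (0.0325%), and 187 (6.08%) at an unadjusted p under 0.05, 85 higher (2.76%) and 102 lower (3.32%) at 9 months. DESeq2 called 4 and, unadjusted, 121. Batch and age cannot be told apart in any of these values.

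Calr, a chaperone of the endoplasmic reticulum, did not pass, at 88.8, 89.5, 111, 126 and 141 CPM at 6 months and 220, 158, 207, 363 and 286 CPM at 9 months (log2 fold change 1.01 ± 0.21, edgeR Benjamini-Hochberg adjusted p = 0.0640). Il31ra had a value of -1.88 ± 0.38 and the same adjusted p, and stood at 228 against 70.5 CPM in the endothelial gate at 6 and 9 months. Atf3 had 1.68 ± 0.37, Hmgn2 -1.54 ± 0.33 and Clcn3 0.93 ± 0.26. Among the 8 tested genes of early B cells, 4 had an unadjusted p under 0.05 by edgeR and all 4 were lower at 9 months, beside 3.32% of all genes. They were Vpreb3 (-1.04 ± 0.40), Cecr2 (-1.02 ± 0.35), Bcl7a (-0.88 ± 0.40) and Tcf3 (-0.68 ± 0.26), and the median of the 8 was -0.53 against -0.02 over all genes. Each was higher in the 16 cells with a precursor gene UMI than in the other B cells (Bcl7a at 458 against 51.3 CPM, Tcf3 at 192 against 69.4 CPM). They therefore cannot be counted as 4 separate results. Of those 16 cells 8 were from R182C-TgN3 6 and 4 from WT-TgN3 2, both of 6 months, and no fold change without these mice is given. Vpreb3 ran from 104 to 1132 CPM at 6 months and from 144 to 489 CPM at 9 months, so the ages overlapped, and R182C-TgN3 6 held the highest value of Vpreb3 and of Cecr2. Of 16 mature follicular genes 0 had an unadjusted p under 0.05, with a median of 0.01.

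**Figure D5:**
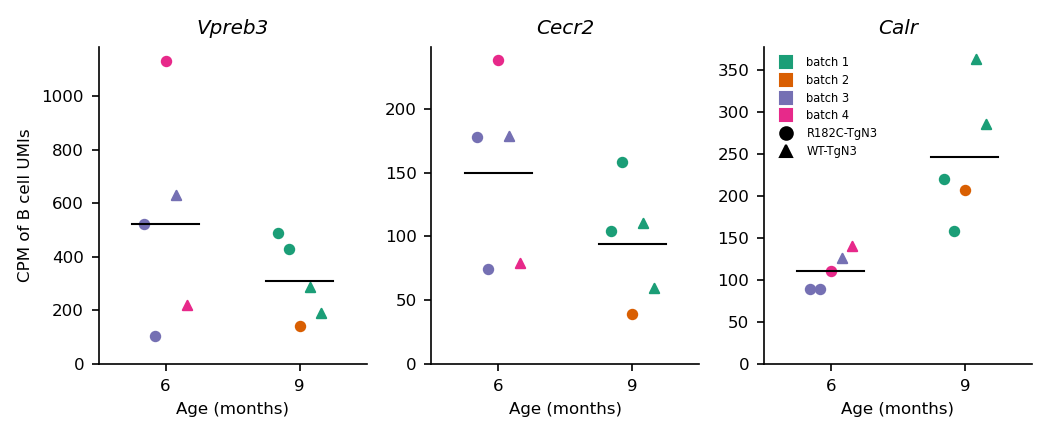
CPM of Vpreb3, Cecr2 and Calr in the summed B cells of each of 10 mice by age in months, with colours for the batch, circles for R182C-TgN3, triangles for WT-TgN3 and black lines at the means. Vpreb3 and Cecr2 overlap widely between ages, and no batch holds both ages.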

How the data were processed

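The authors aligned the reads of each library with Cell Ranger 7.0.0 to the mm10 transcriptome with human NOTCH3 added (version and build as in the submitters' processing notes) and deposited UMI counts per gene and called barcode, without normalization. The values were checked to be whole numbers, and no column was left unassigned. From these counts the B cells were taken by the rule given at the opening. Comparison gates used at least 10 UMIs of Cldn5 and Flt1 (endothelial), at least 5 of P2ry12 and Cx3cr1 (microglia), at least 3 of Cd3e, Cd3d, Cd3g and Nkg7 (T or NK) or at least 5 of S100a8, S100a9, Csf3r and Retnlg (neutrophil), with limits on the other markers, and the first pair of gates excluded any UMI of Cd79a, Cd79b or Ms4a1. Doublets were scored against simulated doublets and not removed. The 61625 kept barcodes had a median depth of 3553.5 to 7775 UMIs per library, so genes of few copies are missed in most cells that hold them.

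The mouse was the replicate. Shares were compared by 2-sided exact permutation tests with Benjamini-Hochberg adjustment over 9 comparisons. For genes, UMIs were summed per mouse with at least 10 B cells (WT-TgN3 1, with 8, was left out). Ribosomal protein, mitochondrial, Gm and Rik genes were removed as in the study, and edgeR 4.0.16 in R 4.3.3 was run with filterByExpr, TMM and the quasi-likelihood test at a Benjamini-Hochberg adjusted p under 0.05. The study stated DESeq2, which was run as an alternative (1.42.0). Tested on simulated counts of the genotype comparison, with 3301 genes tested, the fit called 63 of 87 genes changed 2-fold and 81 of 81 changed 4-fold, and also 11 of 3133 unchanged genes. These counts used the same spread between mice for all genes (a common dispersion of 0.0413). Apart from the changed genes, every simulated mouse had the same gene proportions. They therefore do not show how often a change would be called in genes that vary more between mice. Permutation tests, sums and plots used scipy 1.17.1, pandas 2.3.3, numpy 2.4.6, matplotlib 3.10.9 and biopython 1.88 in Python 3.11.15. Positions and sequences are from GENCODE vM21 on mm10.

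The members and gene lists were chosen with earlier results of these data known. Genes were named as the up to 4 highest of each list by mean CPM, all constant, precursor and rule genes, and the genes past the threshold or up to 3 of smallest p in each direction. Other genes were named after their values were seen. Some genes that meet this rule are not reported here. Alternatives were other limits on genes (250 or 1000), mitochondrial UMIs (20%), marker UMIs (5) and B cells per mouse (30), 0 endothelial and microglial UMIs, doublets removed, no thinning or thinning to 2000 UMIs, cells classed by their most counted constant gene, DESeq2 or its size factors, no filter on low counts, all genes, sex, batch or age as a term, permutation within batches, replicate blocks and each mouse left out. The removal of cells with at least 3 mural UMIs and a wider myeloid gate were added after the data were seen.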

Additional observations from a re-analysis of the deposited data

Results flagged for a closer look

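Values were looked at in 172 groups of 4 to 10 mice for a single mouse far from the others. For continuous values chance alone sets apart about 1 in 20 groups. That rate does not hold for sparse counts, where a gene seen in 1 mouse alone is always set apart. Many of the mice set apart are the same ones.

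R182C-TgN3 6 stood above the other 5 R182C-TgN3 mice in genes and shares of early and dividing B cells. Its share of B cells with a precursor gene UMI was 7.01% after thinning (at most 0.890% in the others) and its share of dividing B cells 6.10% (at most 0.0617%). In CPM it had 35.7 of Rag1, 11.9 of Rag2, 11.9 of Dntt, 151 of Vpreb1, 23.8 of Vpreb2 and 59.6 of Igll1, against at most 6.88 for any of these in the others. Hmgb2 stood at 1287, Hmgn2 at 187, Stmn1 at 183 and Tubb5 at 266 CPM. These values rest on 62 B cells, of which 8 had a precursor gene UMI and 5 were dividing.

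WT-TgN3 2 was set apart among 4 WT-TgN3 mice by 1.61% of B cells with a precursor gene UMI (0 in the others). It was also set apart by 11.7 CPM of Rag1, a single Rag2 UMI (2.93 CPM), 1429 CPM of Cd79b, 281 of Foxo1, 193 of Il31ra and a single Ighg3 UMI (2.93 CPM). Its H2-Aa was lower, at 2006 CPM against 2613 to 2679. Cd79b is among the genes that chose the cells, so its value is a description and not a result.

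Single mice were also set apart for Fcrl5 (38.0 CPM in R182C-TgN3 3, at most 8.88 in the others), Cd79b (1519 CPM in R182C-TgN3 4), Cd1d1 (53.3 CPM in R182C-TgN3 4), Trim30a (119 CPM in R182C-TgN3 5), Iglc4 (8.88 CPM in R182C-TgN3 4 and 11.01 CPM in WT-TgN3 4), Ighg2b (3.48 CPM in WT-TgN3 5) and the share of dividing B cells in WT-TgN3 3 (0.236%). Those of Iglc4 and Ighg2b rest on 1 UMI per mouse. The value of Cd79b, which helped to choose the cells, is again a description only.

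The genotype difference in the lambda share of light chain UMIs was 7.55 points in females and -7.46 points in males, a difference of 15.01 points between the sexes (exact permutation test of the genotype labels within each sex, 90 splits, p = 0.0444, adjusted p = 0.622 over 14 such tests). The males were R182C-TgN3 2 and 4 and WT-TgN3 2 and 4, and the female controls were WT-TgN3 3 and 5. Few mice therefore stand behind each difference.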

How the results depend on the processing

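Of 223 values of the main comparisons under the alternatives, 195 kept their direction and side of the threshold. With each mouse left out, the genotype difference in B cell share ran from 0.0806 to 0.609 points, the age difference from 0.109 to 0.770 and the sex difference from -0.427 to 0.166 (0.0139, 0.166, 0.0526 and 0.0330 without R182C-TgN3 1, R182C-TgN3 2, WT-TgN3 1 and WT-TgN3 2). The difference in the share of blood-derived cells ran from 7.05 to 18.2 points (exact permutation p from 0.00476 to 0.186, highest difference without WT-TgN3 2), in precursor cells from -0.0303 (without R182C-TgN3 6) to 1.48, in Ighd from -4.80 to 0.117 (without WT-TgN3 3), in dividing cells from -0.0467 (without R182C-TgN3 6) to 1.17, in the switched share from -0.248 (without WT-TgN3 3) to -0.103 and in the lambda share from -4.30 to 4.59 (0.142, 0.187, 0.503 and 4.59 without R182C-TgN3 3, R182C-TgN3 5, WT-TgN3 2 and WT-TgN3 4). Without thinning the Ighd difference was 1.78 points. Genotype genes numbered 0 under every alternative except no filter on low counts (49 of 13422). Age genes numbered 4 by DESeq2, 101 without the filter, 2 with all genes, 9 with at least 30 B cells per mouse and 0 to 4 with each mouse left out (0 without R182C-TgN3 1, 5 or 6 or WT-TgN3 5). The cause of these changes was not tested. Paired by age and label number as a replicate block (5 pairs), the difference in B cell share was 0.0806 points (exact sign permutation, p = 0.8125), and the block called 0 of 3118 genotype genes (64 unadjusted). Deviations of paired mice correlated with r from -0.116 to 0.0554 over 4 pairs. Paired mice share their age, batch and label number, and so few pairs cannot show whether the block matters. The counts of 8 to 205 B cells per mouse limit what can be seen.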

Other observations

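The human NOTCH3 transgene gave 13 and mouse Notch3 23 UMIs over all B cells, out of 2776538 UMIs. Gh, the growth hormone gene, stood at 914 CPM in the 79 lambda-led cells and 36.0 CPM in the other B cells, with UMIs in 7 of the 79 (8.86%) and in 6.38% of the others, so that few cells carry the difference in CPM. T cell receptor constant genes gave 4 UMIs in the B cells.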
